A study of Mus musculus with 342 samples.

Results

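Dio1, Thrsp and Me1 are 3 liver genes that thyroid hormone is known to raise, and they are described here in the livers of 342 male Collaborative Cross mice. The members are the probe sets whose platform annotation names exactly 1 of these genes. They are 4 of the 16397 probe sets in the table and stand for 3 of the 9093 genes tested. Where a gene had several probe sets, the brightest on average was used, and the dimmer Thrsp probe set served as a check. Collaborative Cross lines are inbred mouse lines bred from the same set of founder strains, so mice of a line share a genotype. Mice of 44 lines, about 8 to 10 weeks old, received 1 oral gavage of vehicle (0.5% methylcellulose in water, dose 0) or of TAK-875 at 600 mg/kg, and livers were taken 24 h later. TAK-875 (fasiglifam) activates GPR40, a receptor for free fatty acids. Every group is male and of 1 inbred line, so the groups differ in line and in dose. Each vehicle mouse was matched to 1 TAK-875 mouse as a study pair, which gave 171 pairs, 4 in each of 39 lines and 3 in each of 5 lines. RNA was total liver RNA, hybridised to Affymetrix HT MG-430 PM arrays, and values are the authors' log2 RMA levels.

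Dio1 encodes type 1 deiodinase, the selenoenzyme of liver and kidney that converts the prohormone thyroxine to the active hormone triiodothyronine and also clears iodothyronines. In the nucleus, triiodothyronine binds receptors paired with retinoid X receptors on DNA and changes the recruitment of corepressors and coactivators. Thrsp (Spot 14) is a small protein that promotes fatty acid synthesis, and Me1 is the cytosolic malic enzyme, which makes NADPH for that synthesis. Dio1 is widely used as a readout of thyroid hormone action in liver, while Thrsp and Me1 also respond to carbohydrate and insulin. Thyroid hormone itself was not analysed here.

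The 250 bases before 1 annotated start site of each gene are shown because the 3 genes are grouped by a shared regulator. All 3 genes were matched in the RefSeq promoter table of build GRCm38.p6. The Dio1 gene (gene ID 13370) lies on the minus strand at chr4:107291465-107307168, and the stretch shown is chr4:107307169-107307418. Thrsp (gene ID 21835) lies on the minus strand at chr7:97412933-97417550, with the stretch chr7:97417551-97417800. Me1 (gene ID 17436) lies on the minus strand at chr9:86581363-86695914, with the stretch chr9:86695915-86696164 at its outermost start site. A second Me1 start site in the table, with the stretch chr9:86687278-86687527, is described but not printed. Capitals mark CCAAT or its reverse complement.
Dio1: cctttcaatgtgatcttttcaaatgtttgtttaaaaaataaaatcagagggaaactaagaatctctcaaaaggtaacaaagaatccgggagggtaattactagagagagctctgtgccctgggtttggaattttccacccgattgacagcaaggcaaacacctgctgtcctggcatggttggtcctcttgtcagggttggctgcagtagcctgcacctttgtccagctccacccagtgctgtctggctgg
Thrsp: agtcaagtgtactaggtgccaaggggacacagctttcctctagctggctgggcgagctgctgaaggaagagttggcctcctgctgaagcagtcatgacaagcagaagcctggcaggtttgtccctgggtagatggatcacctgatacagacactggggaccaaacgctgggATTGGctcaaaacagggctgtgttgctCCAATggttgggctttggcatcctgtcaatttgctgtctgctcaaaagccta
Me1: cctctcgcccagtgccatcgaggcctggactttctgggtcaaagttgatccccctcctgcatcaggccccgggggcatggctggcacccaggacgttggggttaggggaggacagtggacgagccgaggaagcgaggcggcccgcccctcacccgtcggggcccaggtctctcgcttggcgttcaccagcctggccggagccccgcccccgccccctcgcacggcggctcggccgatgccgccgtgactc
The motifs searched on both strands were AGGTCA (the half-site of nuclear receptors), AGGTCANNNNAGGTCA (2 half-sites spaced for the thyroid hormone receptor), CACGTG (the E-box), TATAAA and CCAAT. None of these lies in the Dio1 stretch or the printed Me1 stretch, and the Thrsp stretch holds CCAAT at 2 places and none of the others. Only exact matches within the 250 bases were counted. Sites that differ from these motifs by a base, or that lie farther away, were not searched for, so an absence here does not mean that a gene lacks such a site. Of 32851 promoters of this length, 14% hold AGGTCA, 0.0152% the spaced pair of half-sites, 6.02% CACGTG, 12.4% TATAAA and 33.8% CCAAT. The stretch of the second Me1 start site holds CCAAT at 1 place and none of the others, is 46% G and C and has 2 CpG dinucleotides. The printed Me1 stretch is 72% G and C with 23 CpG dinucleotides, and 93.1% of promoters have a lower share. The Dio1 stretch (46.8%) and the Thrsp stretch (53.6%) lie nearer the median promoter (52.4%), with 2 CpG dinucleotides each.

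Array medians ran from 5.40 to 6.22, and the hepatocyte marker Alb (albumin) averaged 13.51 in vehicle mice. Arrays correlated with the others of their line and dose at a median of 0.978, and 19 pairs held an array below 0.95, which were 6 vehicle and 13 TAK-875 arrays in 11 lines. All pairs of CC042/GeniUnc and CC053/Unc are among them, and results are given with and without these pairs where a call changes. Of 12 Kupffer cell markers measured, 10 fell, and the mean level of the list over line means ran from 6.20 to 7.44 in vehicle livers and from 6.01 to 7.36 after TAK-875. Endothelial markers fell for 5 of 13 and stellate cell markers for 3 of 9, and hepatocyte markers fell for 3 of 9 and rose for 1. By the same test 11.9% of all genes fell and 15.3% rose. The mean change over lines (TAK-875 minus vehicle, log2) was -0.20 for the Kupffer cell list and -0.06 for the endothelial list. It was -0.09 for the stellate cell list and -0.004 for the hepatocyte list. In whole liver, fewer cells of a type and less RNA per cell cannot be told apart, and the part of these shifts in the results below was not tested.

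Dio1 was lower after TAK-875 in every one of the 44 lines and showed the largest fall of the 9093 genes. Its mean response, TAK-875 minus vehicle averaged within a line and then over lines, was -1.21 ± 0.55 on the log2 scale (SD over 44 lines, 95% confidence interval -1.38 to -1.04). This is 2.31-fold lower, with an adjusted p of 1.94e-16 in limma's test of line means against 0. Of all genes, 27.1% passed this test in either direction, 11.9% as lower and 15.3% as higher. In the 171 vehicle mice the Dio1 level ran from 4.92 to 11.31 with a median of 9.72, and in the 171 TAK-875 mice from 4.17 to 10.97 with a median of 8.30. The ranges of the 2 doses overlap widely across the study. Within pairs, Dio1 was lower in the TAK-875 mouse of 158 pairs, by at least 1 log2 unit in 94 of them, and higher in 13. Every pair was lower in 33 lines. In 25 lines every TAK-875 mouse was below every vehicle mouse, a separation found for 3.39% of all gene and line combinations.

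Thrsp did not pass the test over lines. Its line responses had the widest spread of the 3 genes, as did its pair differences within lines (SD 1.32). Its mean response was -0.25 ± 0.77 (SD over 44 lines, 95% confidence interval -0.48 to -0.02, adjusted p = 0.0821), and 30 lines were lower and 14 higher. The vehicle level ran from 7.50 to 12.54 with a median of 11.42, and the TAK-875 level from 3.09 to 12.45 with a median of 11.17. The pair differences ran from -9.08 to 3.06 around a median of -0.13, with 99 pairs lower and 72 higher. The lower tail is longer than the upper, with 33 pairs lower and 25 higher by at least 1 log2 unit. Leaving out CC058/Unc or CC027/GeniUnc, where Thrsp was highest relative to vehicle, moved the mean to -0.29 (adjusted p = 0.0322) or to -0.28 (adjusted p = 0.0495). Without the 19 poorly correlated pairs it was -0.17 (adjusted p = 0.3).

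The dimmer Thrsp probe set gave a mean response of -0.32 with an adjusted p of 0.0407, so the call depends on which probe set stands for the gene. The 2 probe sets had a Pearson correlation of 0.981 over the 342 arrays, and their line responses had the same sign in 42 lines. The line responses correlated at 0.978.

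Me1 fell slightly on average. Its mean response was -0.26 ± 0.48 (SD over 44 lines, 95% confidence interval -0.41 to -0.12), which is 1.20-fold lower with an adjusted p of 0.00255, and it was lower in 29 lines and higher in 15. The vehicle level ran from 6.16 to 11.01 with a median of 8.89, and the TAK-875 level from 6.83 to 10.71 with a median of 8.55. Pair differences ran from -2.25 to 1.65 with a median of -0.18, and 104 pairs were lower and 67 higher. Without the poorly correlated pairs the mean was -0.20 (adjusted p = 0.0184).

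**Figure D1:**
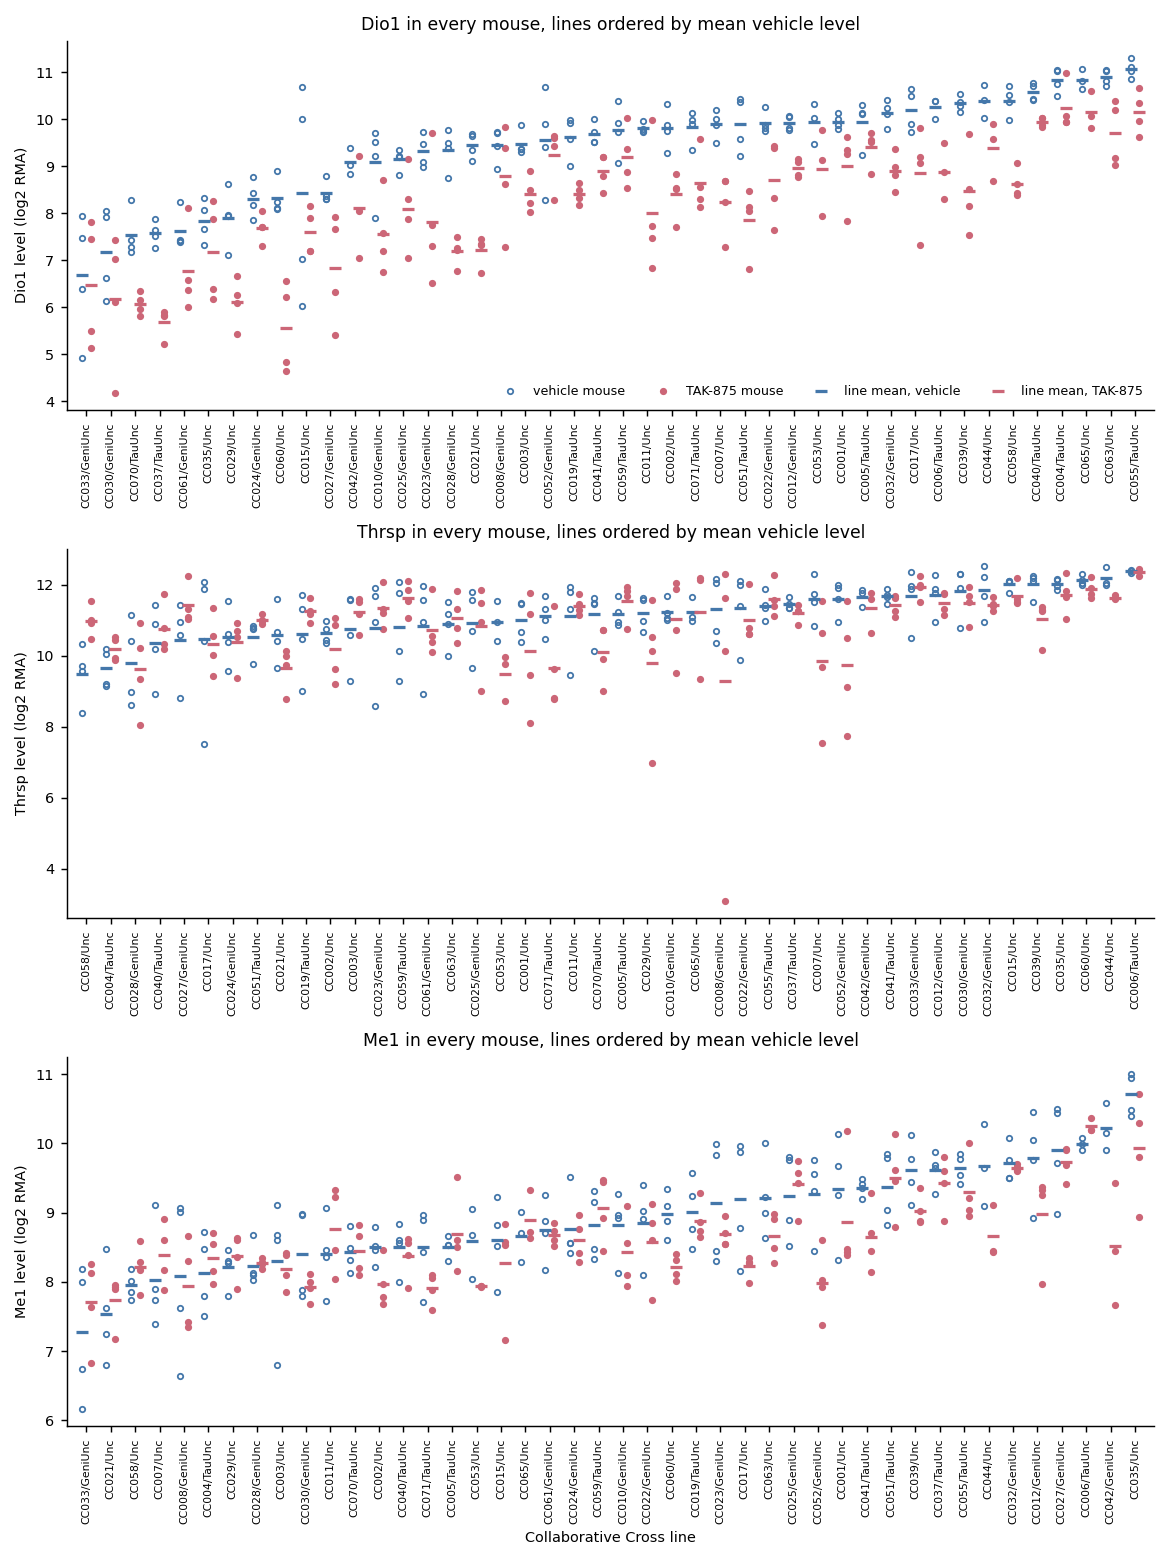
Log2 RMA level of Dio1, Thrsp and Me1 (vertical axes) in every mouse, by Collaborative Cross line (horizontal axis, ordered in each panel by mean vehicle level). Open blue points are vehicle mice, filled red points TAK-875 mice, and bars line means. Dio1 bars for TAK-875 lie below those for vehicle in all 44 lines, while those for Thrsp lie above in 14 lines and those for Me1 in 15.

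The vehicle livers show how much the measured level of each gene depends on the line. Dio1 and Me1 each rest on 1 probe set, so a line difference in RNA cannot be told apart from one in probe binding. All 3 genes passed limma's F test for a difference between lines in vehicle level, as did 98.0% of all genes, so a pass does not set these genes apart. The sizes differ more: Dio1 had an F of 14.0 (adjusted p = 5.55e-31), Me1 an F of 6.39 (adjusted p = 3.16e-16) and Thrsp an F of 2.63 (adjusted p = 1.63e-05). Of the variance among vehicle mice, 76.3% lay between lines for Dio1, 57.0% for Me1 and 28.2% for Thrsp. The difference between these shares was not tested. Mean vehicle levels spanned 20.9-fold between lines for Dio1, 10.9-fold for Me1 and 7.36-fold for Thrsp.

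Dio1 was lowest in CC033/GeniUnc, where the 4 vehicle mice read 6.39, 7.48, 7.94 and 4.92 (mean 6.68 ± 1.34, SD, n = 4). CC030/GeniUnc followed at 7.18 ± 0.95 (SD, n = 4) and CC070/TauUnc at 7.54 ± 0.50 (SD, n = 4). At the other end CC055/TauUnc read 11.11, 10.85, 11.01 and 11.31 (mean 11.07 ± 0.19, SD, n = 4), and CC063/Unc 10.71, 11.02, 10.80 and 11.04 (mean 10.89 ± 0.17). CC065/Unc was next at 10.83 ± 0.21 (SD, n = 3). These 3 high lines do not overlap the 3 low ones in any vehicle mouse, but they were picked by the same levels, so this only describes them. In 41 of 43 neighbouring pairs of lines the gap was smaller than their mean SD. With this many lines most neighbouring gaps are narrow, so the count cannot tell a gradient from a set of steps. The widest gap was 0.64, against a median gap of 0.05. Below it was CC027/GeniUnc, rank 11 from the lowest (8.44 ± 0.24, SD, n = 4). Above it was CC042/GeniUnc, rank 12 (9.08 ± 0.29, SD, n = 3). Whether the lines fall into groups was not tested. The widest spread within a line was in CC015/Unc, with an SD of 2.26. Its vehicle arrays of strain pairs 2 and 3 are among the poorly correlated arrays (0.946 and 0.93).

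Thrsp was lowest in CC058/Unc, with vehicle levels of 10.32, 9.72, 9.56 and 8.38, and was also low in CC004/TauUnc (mean 9.65 ± 0.55, SD, n = 4) and CC028/GeniUnc (9.78 ± 1.19, SD, n = 4). It was highest in CC006/TauUnc, with 12.33, 12.38 and 12.42, then in CC044/Unc (12.18 ± 0.28, SD, n = 3) and CC060/Unc (12.12 ± 0.14, SD, n = 4). The SD within a line ran from 0.04 in CC006/TauUnc to 2.11 in CC017/Unc. No neighbouring lines in the order of Thrsp levels differed by more than the root mean square of their SDs.

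Me1 was lowest in CC033/GeniUnc, the line that was also lowest for Dio1, with vehicle levels of 8.18, 6.74, 6.16 and 7.99. CC021/Unc (7.53 ± 0.71, SD, n = 4) and CC058/Unc (7.95 ± 0.20, SD, n = 4) came next. It was highest in CC035/Unc, with 10.40, 10.49, 10.95 and 11.01, followed by CC042/GeniUnc (10.22 ± 0.34, SD, n = 3) and CC006/TauUnc (9.99 ± 0.08, SD, n = 3). The poorly correlated arrays of CC042/GeniUnc were its TAK-875 arrays, and its vehicle arrays correlated with each other at 0.986 or 0.987. Of 43 neighbouring gaps, 42 were smaller than the root mean square of the lines' SDs.

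The order of the lines in vehicle livers was compared with their order after treatment, and differences between genes in this relation were not tested. Over 44 lines, the vehicle level and the TAK-875 level, measured in different mice, correlated at r = 0.892 for Dio1 (rho = 0.876, permutation p = 1e-05, adjusted p = 5.2e-05). The correlation was r = 0.756 for Me1 (rho = 0.732, permutation p = 1e-05, adjusted p = 5.2e-05) and r = 0.446 for Thrsp (rho = 0.524, permutation p = 0.0024, adjusted p = 0.010). The p of 1e-05 is the smallest that 100000 permutations can give, and p-values were adjusted over 21 relations. Without the 2 lines farthest from the median vehicle level, r was 0.892 for Dio1, 0.700 for Me1 and 0.478 for Thrsp. For Dio1 the range of vehicle line means, from 6.68 to 11.07, was wider than the mean fall.

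The size of the Dio1 fall ranged from -0.21 to -2.77 between lines. The largest was in CC060/Unc, where vehicle mice read 8.08, 8.23, 8.12 and 8.89 and TAK-875 mice 4.83, 6.22, 6.55 and 4.64. The doses do not overlap there, and the mean fell by 2.77 (SD 1.22, n = 4 pairs), or 6.82-fold. CC021/Unc went from 9.64, 9.35, 9.10 and 9.69 to 6.72, 7.33, 7.33 and 7.45, a response of -2.24 ± 0.49 (SD, n = 4). CC028/GeniUnc went from 9.77, 9.50, 9.37 and 8.75 to 7.22, 7.49, 6.77 and 7.25, a response of -2.16 ± 0.52 (SD, n = 4). In these lines each treated mouse stood below each vehicle mouse.

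The smallest Dio1 response was in CC033/GeniUnc, the line with the lowest vehicle level, where TAK-875 mice read 5.50, 7.44, 7.80 and 5.13 and 1 pair was higher (-0.21 ± 0.48, SD, n = 4). CC052/GeniUnc went from 8.27, 9.89, 9.40 and 10.68 to 9.63, 9.43, 8.29 and 9.59, with a mean of -0.33 ± 1.17 (SD, n = 4). CC005/TauUnc gave -0.54 ± 0.74 (SD, n = 4). In each of these 3 lines the doses overlap and 3 of 4 pairs were lower. Lines with low and with high vehicle levels are both found among the large falls, since CC060/Unc began at 8.33 and CC039/Unc, with -1.87, among the higher lines. The same vehicle mice enter the vehicle level and the response, so a vehicle mean that is low by sampling makes a fall look smaller. The relation between the 2 was not tested.

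Tested within single lines, Dio1 passed as lower in 11 of 44 lines, against 0.423% of all gene and line tests. These were CC060/Unc, CC021/Unc, CC028/GeniUnc, CC051/TauUnc, CC037/TauUnc, CC039/Unc, CC058/Unc, CC011/Unc, CC029/Unc, CC007/Unc and CC027/GeniUnc, with responses from -2.77 to -1.61. A line's Dio1 response had a standard error of 0.50 with 3 pairs and 0.43 with 4, so a line that missed the threshold may still have fallen. The Dio1 response was not called different between lines (F = 1.64, adjusted p = 0.0754, with 16.2% of all genes called). It was called when the poorly correlated pairs were left out (F = 2.02, adjusted p = 0.024). Of the variance in the pair differences, 12.9% lay between lines.

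Thrsp responses pointed both ways. CC058/Unc, the line with the lowest vehicle level, went from 10.32, 9.72, 9.56 and 8.38 to 10.48, 11.54, 10.92 and 11.00. This is a response of 1.49 ± 1.03 (SD, n = 4) with no overlap on the probe set used. The same vehicle mice enter both values, so a vehicle mean that is low by sampling raises the response. CC027/GeniUnc gave 0.98 ± 1.18 (SD, n = 4) and CC059/TauUnc 0.82 ± 1.05 (SD, n = 4), both with overlap. CC052/GeniUnc went from 11.60, 11.98, 10.94 and 11.90 to 7.75, 11.55, 9.12 and 10.50, a response of -1.87 ± 1.44 (SD, n = 4). CC007/Unc gave -1.74 ± 2.02 (SD, n = 4). In both of these lines some treated mice were within the vehicle range and others far below it. Every TAK-875 mouse was below every vehicle mouse in 3 lines (CC039/Unc, CC044/Unc and CC053/Unc) and above in 2 (CC051/TauUnc and CC058/Unc). Over all gene and line combinations these shares are 3.39% and 3.92%, so the Thrsp counts lie near them. On the dimmer probe set the doses were apart and lower in 3 lines and apart and higher in 0. Both CC051/TauUnc and CC058/Unc overlapped there. No line passed the test within lines. Of the variance in Thrsp pair differences, 7.56% lay between lines, less than the 12.9% for Dio1 and the 20.0% for Me1.

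A single mouse of CC008/GeniUnc sets the lowest Thrsp value of the study. The line's vehicle mice read 12.05, 10.69, 12.17 and 10.34 and its TAK-875 mice 10.14, 12.30, 3.09 and 11.64. The pair of the lowest mouse differed by -9.08, and the dimmer probe set read 11.70 and 3.66 in the same mice. That treated mouse had the lowest level of Fasn, fatty acid synthase, among the 171 treated mice (7.11, against 11.82 in its vehicle partner), and ranked 2 from the lowest for the Thrsp homologue Mid1ip1 (6.85 against 10.34). Its Me1 level of 7.35 ranked 4 from the lowest. Acly ranked 7, Acss2 and Scd1 each ranked 12, and Pklr ranked 71. Albumin read 13.47 against 13.51 in the vehicle partner. Without this pair the mean Thrsp response over lines was -0.20 (adjusted p = 0.156), a setting chosen after the value was seen. The F test of Thrsp responses between lines gave 1.37 (adjusted p = 0.188) with the pair and 1.71 (adjusted p = 0.0574) without it.

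Me1 responses differed between lines in the F test (F = 2.04, adjusted p = 0.0182), with 20.0% of the variance in pair differences between lines. The call did not hold without the poorly correlated pairs (F = 1.57, adjusted p = 0.105), without the pairing (F = 1.6, adjusted p = 0.078), or with any one strain pair number left out. CC042/GeniUnc fell most, from 10.16, 10.58 and 9.91 to 8.44, 9.43 and 7.66 (-1.71 ± 0.55, SD, n = 3, adjusted p = 0.0049), and all of its pairs hold a poorly correlated array. CC052/GeniUnc went from 9.31, 9.55, 8.45 and 9.76 to 7.38, 8.60, 7.92 and 8.03 (-1.29 ± 0.66, SD, n = 4, adjusted p = 0.0204), and 2 of its 4 pairs are poorly correlated. These were the only lines to pass within lines, both lower. CC044/Unc gave -1.01 ± 0.71 (SD, n = 3). The highest responses were 0.45 ± 0.40 in CC033/GeniUnc, where all 4 pairs were higher, and 0.36 in CC007/Unc and in CC011/Unc. The doses were apart and lower in CC042/GeniUnc, CC053/Unc and CC060/Unc, and apart and higher in CC006/TauUnc, by 0.26, counts of 3 and 1 that again lie near the shares over all genes.

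**Figure D2:**
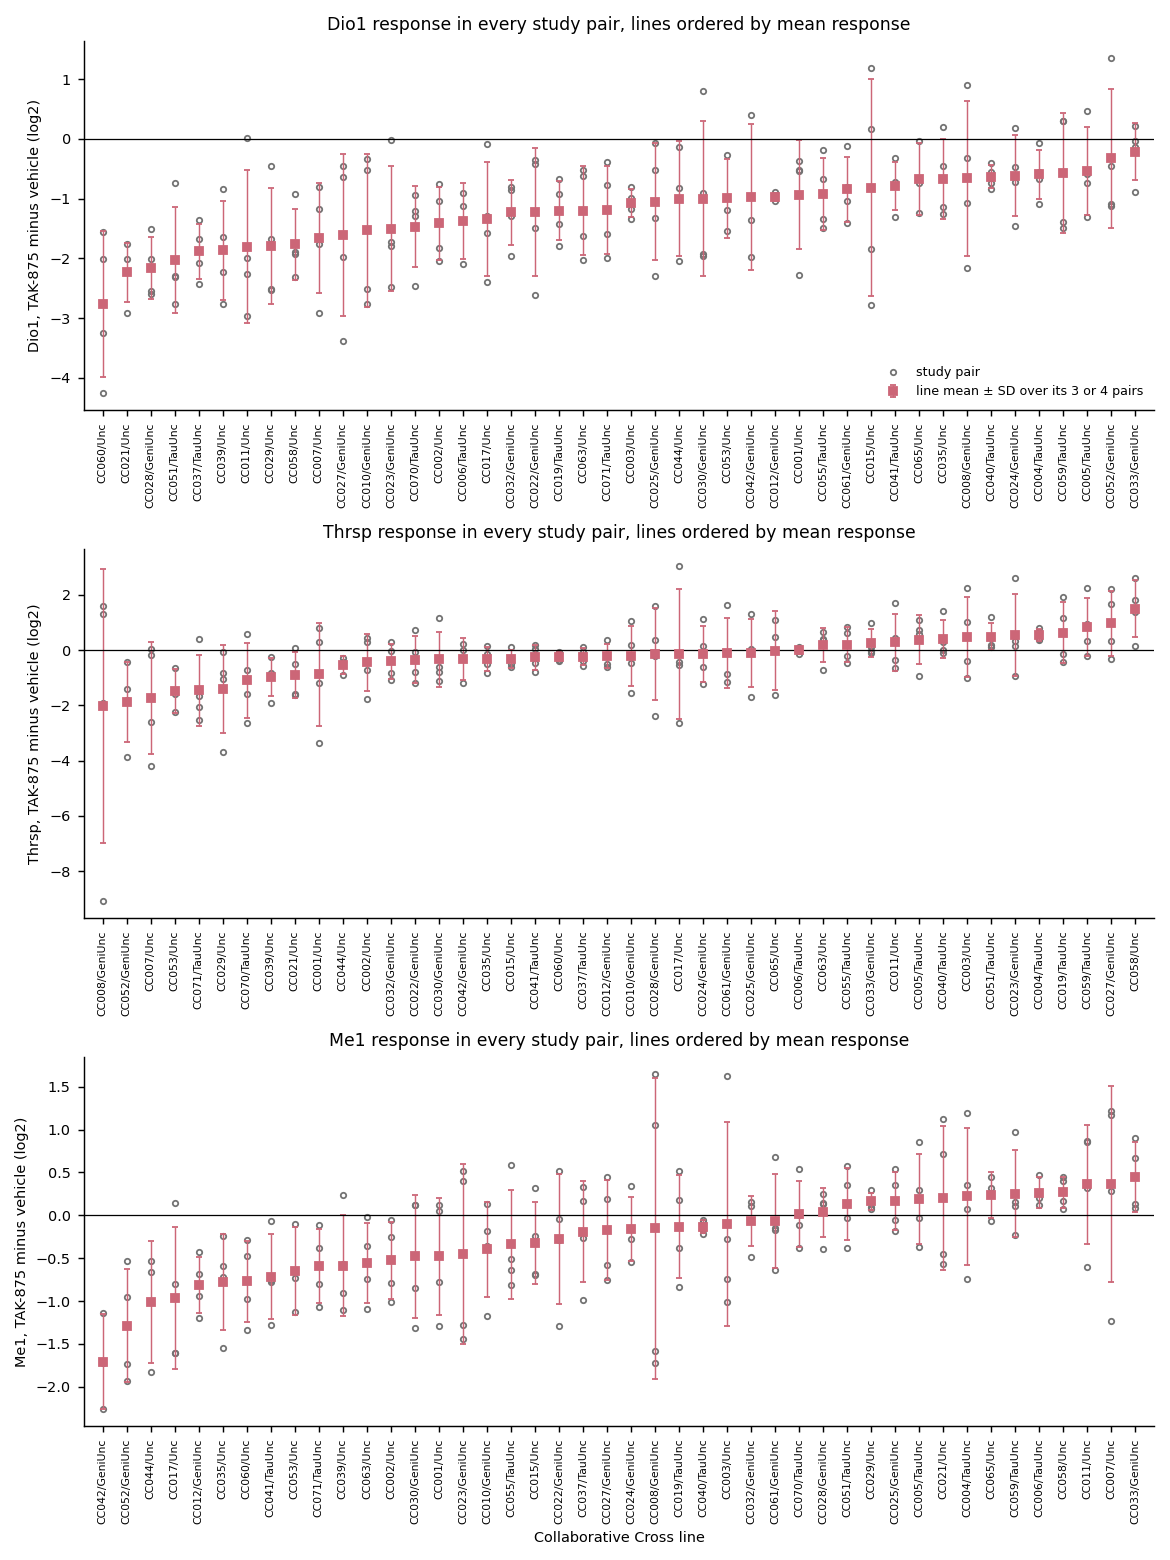
TAK-875 minus vehicle (log2, vertical axes) for Dio1, Thrsp and Me1 by line (horizontal axis, ordered in each panel by mean response). Open points are study pairs, and squares with bars are line means ± SD over 3 or 4 pairs. All Dio1 squares lie below 0, Thrsp and Me1 squares lie on both sides, and the lowest Thrsp point is the CC008/GeniUnc pair at -9.08.

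The same line could rank differently for each gene. CC058/Unc fell in Dio1 (-1.76, adjusted p = 0.0176) and had Thrsp at 1.49 and Me1 at 0.27 above vehicle, neither called within the line. CC052/GeniUnc had one of the smallest Dio1 responses, while its Me1 fell by 1.29 and its Thrsp was at -1.87, not called. Over 44 lines the Dio1 response correlated with the Thrsp response at r = -0.01 (rho = 0.07, permutation p = 0.97, adjusted p = 0.99) and with the Me1 response at r = -0.11 (rho = -0.08, permutation p = 0.47, adjusted p = 0.71). Thrsp and Me1 responses correlated at r = 0.30 (permutation p = 0.049, adjusted p = 0.12) and rho = 0.41 (permutation p = 0.0067, adjusted p = 0.020). Their vehicle levels correlated at r = 0.42 (rho = 0.39, permutation p = 0.0041, adjusted p = 0.014), and r was 0.34 without the 2 farthest lines. Dio1 vehicle levels correlated with neither (r = -0.22 with Thrsp and 0.12 with Me1, adjusted permutation p = 0.3 and 0.71).

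Thrsp and Me1 followed the other genes of the lipogenesis list from line to line, and no such relation was found for Dio1. Besides genes of fatty acid synthesis, the list holds others such as Khk and Slc2a2, and Tom1l2, which was matched by synonym in place of Srebf1. The mean response of the 28 other measured lipogenesis genes correlated over 44 lines with the Thrsp response at r = 0.703 (rho = 0.809) and with the Me1 response at r = 0.659 (rho = 0.612), each with a permutation p of 1e-05 and an adjusted p of 5.2e-05 for r. It correlated with the Dio1 response at r = -0.05 (rho = -0.02, permutation p = 0.76, adjusted p = 0.99). Without the 2 lines farthest from the median, r was 0.759 for Thrsp and 0.568 for Me1, and without CC008/GeniUnc 0.696 and 0.677. These responses come from the same arrays, so they share each array's quality and the same vehicle mice. Without the poorly correlated pairs r was 0.773 and 0.634 over 42 lines.

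**Figure D3:**
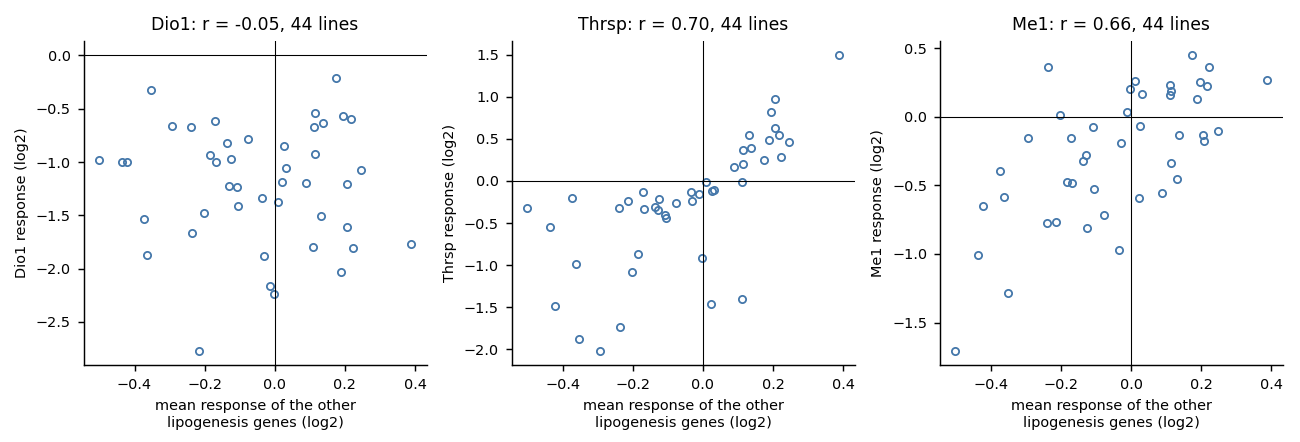
Line responses (TAK-875 minus vehicle, log2) of Dio1, Thrsp and Me1 (vertical axes), 1 point for each of 44 lines. The horizontal axis is the mean response of the 28 other genes of the lipogenesis list. Thrsp and Me1 rise along the axis (r = 0.70 and 0.66), and Dio1 shows no slope (r = -0.05).

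Acute phase genes, which inflammation raises in hepatocytes, ran the other way for Thrsp. Their mean response over 27 genes correlated with the Thrsp response at r = -0.42 (rho = -0.50, permutation p = 0.0046, adjusted p = 0.014), with the Me1 response at r = -0.31 (rho = -0.30, permutation p = 0.039, adjusted p = 0.10) and with the Dio1 response at r = -0.02 (rho = -0.02, permutation p = 0.89, adjusted p = 0.99). Without the 2 farthest lines r was -0.40 for Thrsp. Targets of PPARA, the fatty acid receptor of liver, rose for 30 of 34 measured, where 15.3% of all genes rose. The only one that fell was Me1, itself on that list. The list was chosen with earlier results of these data known, so this count describes its genes only. Over lines the mean PPARA target response had no relation that passed to Dio1 (r = -0.02, rho = 0.01, permutation p = 0.92, adjusted p = 0.99), Thrsp (r = -0.12, rho = -0.06, permutation p = 0.46, adjusted p = 0.71) or Me1 (r = 0.22, rho = 0.32, permutation p = 0.16, adjusted p = 0.30). The mean of 14 genes of fasting and amino acid catabolism had r of 0.00, 0.01 and -0.05 with the 3 genes (adjusted permutation p = 0.99 each). For Me1 this r was 0.31 without the poorly correlated pairs and -0.17 with arrays centred on their medians.

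Genes whose line responses were most like each member were named by Pearson r over the 44 lines, as a description. For Thrsp they were Fasn (0.75), the water channel Aqp8 (0.72), the acetyl-CoA synthetase Acss2 (0.70), Mid1ip1 (0.69) and Hes6 (0.67). For Me1 they were Pip4p2, 4930402H24Rik, Tmem135, Celf1 and Ppp3cb, all between 0.73 and 0.74, and between 0.65 and 0.70 once each array was centred on its median. For Dio1 the likeness was weaker, with Lrpap1 (0.61), Ggact (0.56), Ttc39c (0.55), the lysosomal galactosidase Glb1 (0.54) and H2-Eb1 (0.53). For vehicle levels, Thrsp was most like Fasn (0.72), the citrate lyase Acly (0.71), the liver pyruvate kinase Pklr (0.61), Aacs (0.61) and Acss2 (0.60). Me1 was most like Pklr (0.63), the liver glycogen phosphorylase Pygl (0.61), Ston2 (0.57), the glucose transporter Slc2a2 (0.54) and Acacb (0.53). Dio1 was most like Yipf1 (0.54), Mki67 (0.50), Tspan33 (0.50), Rab29 (0.48) and Gusb (0.48).

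The other measured genes of thyroid hormone handling moved little beside Dio1. Of 14 others, 3 fell and none rose by limma's test (adjusted p under 0.05), where 11.9% of all genes fell and 15.3% rose. Their median response was -0.01, against 0.0056 for all genes. The organic anion carrier Slco1a1, which takes up iodothyronines among other substrates, was lower by a mean of -0.25 ± 0.58 (SD over 44 lines, adjusted p = 0.0194). Iyd, which removes iodine from iodotyrosines, fell by a mean of 0.17 ± 0.17 and was lower in 39 lines, and Crym, a cytosolic thyroid hormone binding protein, fell by a mean of 0.15 ± 0.31 and was lower in 31 lines. Transthyretin (Ttr), a plasma carrier of the hormone, was at -0.01 ± 0.05 and was not called. The Dio1 fall was larger than any of these in mean.

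Among 19 measured receptors and coregulators, 3 fell and 1 rose, where 11.9% of all genes fell and 15.3% rose. The median response of the 19 was -0.0005. Thra, thyroid hormone receptor alpha, was at -0.09 ± 0.18 (adjusted p = 0.0175), the corepressor subunit Tbl1x at -0.12 ± 0.20, Rxrg at -0.10 ± 0.21, and Tbl1xr1 at 0.13 ± 0.30. Rxra, the main retinoid X receptor of liver, was at 0.03 ± 0.15 and was not called. Thrb, the main thyroid hormone receptor of hepatocytes, is not among the genes used here.

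Other liver targets of thyroid hormone did not move as a block with Dio1. Of 17 others measured, 3 fell, 4 rose and 10 were not called, with a median response of 0.02. Over all genes the shares were 11.9% lower and 15.3% higher. G6pc, the last step of glucose output, was at -0.50 ± 0.45 (lower in 39 lines), the carbohydrate response factor Mlxipl at -0.22 ± 0.24 (35 lines) and the mitochondrial glycerol phosphate dehydrogenase Gpd2 at -0.16 ± 0.27 (33 lines). Higher were Fgf21 (0.46 ± 0.61), Angptl4 (0.40 ± 0.64) and Cpt1a (0.34 ± 0.26), which is the entry step of mitochondrial fatty acid oxidation, all of which are also raised by PPARA, and Apoa1 (0.06 ± 0.06). Klf9, a transcription factor that thyroid hormone induces in many tissues, was at 0.03 ± 0.32 and was not called. Several members of these lists answer to other regulators too, so a count over a list describes these genes only.

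**Figure D4:**
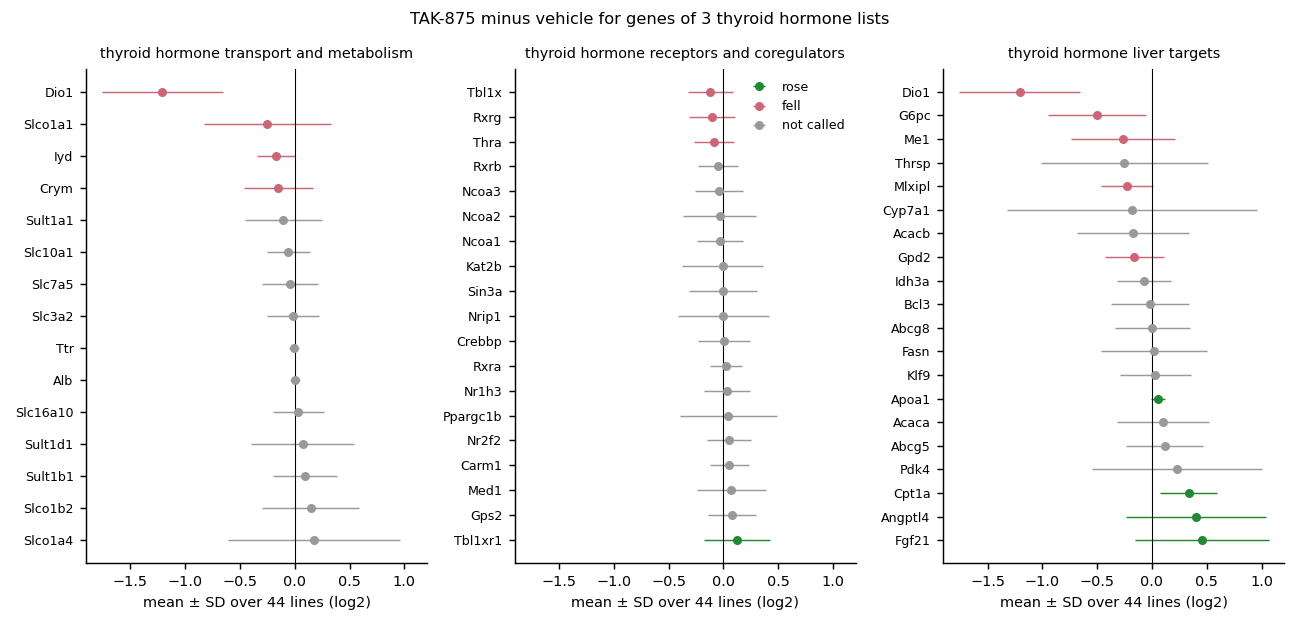
Mean TAK-875 minus vehicle response (log2, horizontal axes) of the measured genes (vertical axes) of 3 thyroid hormone lists, with bars for the SD over 44 lines. Colours mark genes that rose, fell or were not called. Dio1 at -1.21 lies apart from every other gene shown, and most others lie within 0.5 of 0.

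The lists around Thrsp and Me1 held genes called in both directions, to be read against the 11.9% of all genes that fell and the 15.3% that rose. Of 28 other genes of the lipogenesis list, 7 fell, 2 rose and 19 were not called, with a median of -0.04. Those that fell include Tom1l2 (-0.10 ± 0.18), which was matched by synonym in place of the listed Srebf1. Srebf1 itself is not among the genes used here. Pklr was at -0.58 ± 0.40 (lower in 41 lines), the fructokinase Khk at -0.26 ± 0.26 (38 lines), Aacs at 0.40 ± 0.81 and the desaturase Fads2 at 0.30 ± 0.31. Fasn, the gene most like Thrsp over lines, had a mean of 0.02 ± 0.48 and was lower in 21 of 44 lines, with no call (adjusted p = 0.901). Of 17 other genes of NADPH production, 5 fell and 2 rose, with Idh2 at -0.22 ± 0.18, Aldh1l1 at -0.19 ± 0.17, Taldo1 at -0.13 ± 0.17 and Mthfd1 at -0.11 ± 0.18 the largest. Of 24 other genes of selenoproteins and selenium use, 6 fell and 3 rose, led by Gpx4 at 0.21 ± 0.26, Selenow at -0.20 ± 0.30, Selenoh at -0.19 ± 0.25 and the selenocysteine factor Secisbp2 at 0.14 ± 0.19. The plasma selenium carrier Selenop was at -0.02 ± 0.08 and was not called. Of the 27 acute phase genes, 5 fell and 2 rose, with Saa3 at -0.69 ± 0.77 and Cd14 at 0.48 ± 0.91 the largest in size, and of the 14 fasting genes 5 fell and 3 rose.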

How the data were processed

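Liver RNA of 171 vehicle and 171 TAK-875 mice was measured on 1 array each. The authors deposited log2 levels of each probe set. The submitters' processing notes name Affymetrix Power Tools and RMA, with versions not given in the sources used here. RMA corrects background, normalizes arrays and summarises probes. Scanner signals were not analysed here, and undetected probe sets were not filtered. The series title spells the compound TAK-857 and the labels TAK-875, which is followed.

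Gene names come from the platform annotation: 13083 name 1 gene, 261 several and 3053 none. For each of 9093 genes the brightest probe set on average was kept. Tests used limma 3.58.1 in R 4.3.3, two-sided, with variance trended on mean level and a Benjamini-Hochberg adjusted p of 0.05 over all genes, or over all 400092 gene and line tests within lines. Line means of pair differences were tested against 0. The 171 pair differences with 1 mean per line (127 residual degrees of freedom) gave the F test and the tests within lines. Correlations over lines used 100000 permutations. Each mouse is a separate animal.

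The genes of a study pair deviated together only weakly (mean correlation of deviations 0.0361 in the same pair and -0.0117 in other pairs of the line), and the pairing comes from the labels, which say that pairs were treated together. Named genes are the members, the 5 genes most like each over lines, and up to 4 called genes of largest size per list, with a few other list genes named for their role. The members and lists were chosen with earlier results of these data known. The number of arrays limits the precision. Alternatives were array centring, repeated quantile normalization, the mean of a gene's probe sets, a filter on dim genes, no variance trend, other units and pairings, and leaving out strain pairs, lines and poorly correlated pairs. A further line that the labels mention was not analysed here.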

Additional observations from a re-analysis of the deposited data

Results flagged for a closer look

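In lines with 4 mice per dose, the highest or lowest mouse was compared with the other 3 by Dixon's ratio, in 351 sets of Dio1, Thrsp and Me1 levels and responses. A value stood apart in 19 sets, and chance puts about 1 in 20 apart, so these are given as values only.

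Among vehicle mice, the highest Dio1 level stood apart in CC003/Unc (9.88, with the others from 9.30 to 9.37), CC027/GeniUnc (8.79, others 8.29 to 8.36) and CC061/GeniUnc (8.24, others 7.39 to 7.42). Among TAK-875 mice, Dio1 stood apart as the highest in CC004/TauUnc (10.97) and as the lowest in CC021/Unc (6.72), CC037/TauUnc (5.22) and CC052/GeniUnc (8.29). The Dio1 response of 1 pair of CC001/Unc was -2.29, with the others between -0.54 and -0.38.

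The lowest Thrsp vehicle level stood apart in CC015/Unc (11.78), CC051/TauUnc (9.77) and CC070/TauUnc (10.14, others 11.44 to 11.63). Among TAK-875 mice Thrsp stood apart as the highest in CC015/Unc (12.19) and CC022/GeniUnc (12.02), and as the lowest in CC039/Unc (10.16). The CC008/GeniUnc mouse at 3.09 did not meet this ratio because the other 3 also spread.

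Me1 stood apart as the highest vehicle mouse in CC024/GeniUnc (9.52) and CC028/GeniUnc (8.68). Among TAK-875 mice it was the highest in CC001/Unc (10.18, others 8.38 to 8.48) and the lowest in CC012/GeniUnc (7.97) and CC021/Unc (7.17). The Me1 response differed between lines in limma's F test (F = 2.04, adjusted p = 0.0182), a call that depends on the pairs used.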

How the results depend on the processing

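The Dio1 response kept its direction and its call in all 13 alternative fits, from -1.27 to -1.17, and with each of the 44 lines left out in turn. Me1 kept both in 13 fits, from -0.28 to -0.20 (adjusted p from 5.58e-05 to 0.0184), and with each line left out. Thrsp stayed lower in 14 fits, from -0.32 to -0.15, but was called only with the dimmer probe set (-0.32) and without CC027/GeniUnc or CC058/Unc. Over the fits that leave out 1 strain pair, 1 pair or 1 line its mean ran from -0.31 to -0.15. The F test of line responses gained the call for Dio1 without the poorly correlated pairs (2.02) and lost it for Me1 in 6 of 12 fits: without those pairs (1.57), without the pairing (1.6) and without each strain pair number (1.71 to 1.95, with 3 or fewer pairs a line). Without the CC008/GeniUnc pair of the lowest Thrsp mouse, chosen after the data were seen, the Me1 F was 2.22. The 1474 genes whose response differed between lines became 129 to 691 when 1 strain pair number was left out, which leaves fewer mice, and 1536 without that CC008/GeniUnc pair. Vehicle levels differed between lines for all 3 genes in every fit run. With the study pair as block and unit the mean Me1 response was -0.25 and that of Thrsp -0.24 (adjusted p = 0.0555), and pairing changed no call of a mean response. Correlations over lines kept their sign where they had passed.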
